A study of Mus musculus with 145 samples.

Results

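Untreated mammary tumours with a transposon insertion in Trps1 were set against untreated tumours without one. A tumour was called Trps1-hit when at least 1 integration site of 10 or more reads lay inside the gene region of Trps1, and a position on a strand with reads in several libraries was credited only to the library with the most reads there. By this rule 73 of 94 untreated tumours were Trps1-hit (77.7%, 95% Clopper-Pearson interval 67.9 to 85.6) and 21 were not, in a series that held 94 untreated and 51 drug-resistant tumours. The tumours came from mice with Cre under the WAP promoter, the piggyBac transposase and mutant PIK3CA(H1047R) each behind a stop cassette that Cre removes (LSL-PB, LSL-PIK3CA), and ATP1 transposons. WAP is a milk protein promoter that is switched on in mammary epithelium from late pregnancy, so mating started both the oncogene and the transposase. The 94 untreated tumours, from 23 mice and labelled as mammary fat pad tumours, received no drug. Of these, 2 unhit ones, tumours 58 and 88, carry the same mouse and gland in their titles, the second with the ending R2, and may be repeat libraries of 1 tumour. Their most-read position was the same and held 28181 of 28497 and 20823 of 20926 reads, although 10 untreated libraries in all had 10 or more reads there. Without tumour 88 the counts were 73 hit and 20 unhit of 93 (78.5% hit). With the strata kept the counts of genes called below were unchanged. With strata formed anew, 34 genes in place of 24 were hit less often in Trps1-hit tumours at an unadjusted p under 0.05, and 0 passed after adjustment. The 51 resistant tumours, of the same genotype, had grown under daily BYL719 (alpelisib, an inhibitor of PI3K alpha, at 30 mg/kg) that began at a volume of 250 mm3, and served only as a second set in which the contrast could be repeated. All values came from whole tumours as genomic DNA, so whether insertions in different genes lay in the same cells was not measured.

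TRPS1 is a transcription factor with a GATA-type zinc finger that represses its targets, in part by recruiting corepressor complexes such as NuRD and CoREST. It is expressed in luminal cells of the mammary gland and is used as a marker of breast carcinoma. PiggyBac moves by cutting and pasting at TTAA, and an insertion of the ATP1 element can activate a neighbouring gene or truncate the gene it lands in, depending on place and orientation. The comparison asks whether other genes were hit together with Trps1, or apart from it, more often than the number of insertions in a tumour alone would give.

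Since the rule selected the tumours by their Trps1 reads, the Trps1 insertions are given as a description with no test. The Trps1 region spanned positions 50654759 to 50892041 of chromosome 15 (mm10, 237 kb), and no other gene region overlapped it. The 73 tumours held 281 Trps1 sites, of which 142 lay on the plus strand and 139 on the minus strand. Sites on both strands were found in 41 tumours, on the plus strand alone in 14 and on the minus strand alone in 18. The 6 Trps1 sites with the most reads have the following 8-base contexts in the deposited site table. Capitals mark the TTAA target of piggyBac, which stood at 275 of the 281 sites (97.9%). They are shown because they had the most reads of the Trps1 integrations. Those of tumours 94, 6 and 25 lay close to one another on the plus strand, at 50828280, 50829616 and 50835347 of chromosome 15.
tumour 25, 50835347 plus: TTAAggat
tumour 3, 50677474 plus: TTAAagat
tumour 6, 50829616 plus: TTAAggtc
tumour 94, 50828280 plus: TTAAggct
tumour 56, 50736355 plus: TTAAagag
tumour 77, 50754978 minus: TTAAtgag

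The site of tumour 25 had 17026 reads, 10.7% of the reads at sites of that tumour, and was its most-read site. Those of tumours 94 (2688 reads, 12.5%) and 77 (1980 reads, 2.77%) were also the most-read sites of their tumours, whereas the 8092 reads of tumour 3 ranked second and came to 1.99%. Trps1 held the most-read site in 6 tumours, one of the 10 most-read sites in 19 and one of the 100 most-read sites in 53. The highest Trps1 site of a tumour had between 11 and 17026 reads (median 143 over the 73). A single Trps1 site was found in 18 tumours, 2 or 3 in 33 and 4 or more in 22. The 5 tumours with 10 or more Trps1 sites held 10, 17, 19, 20 and 22, and each of them had at least 1083 sites elsewhere in the genome. Within 100 kb of the Trps1 region, 9 hit tumours had a site on the side of the higher coordinates and 2 on the lower side. On either side 0 of 21 unhit tumours had one (95% Clopper-Pearson upper limit 16.1%).

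The threshold separated the classes narrowly in a few tumours. Just inside it, the highest Trps1 site had 11 reads in tumour 89, 14 in tumours 7 and 30 and 16 in tumour 74. Just outside it, tumour 34 had a Trps1 site of 7 reads and tumour 81 a site of 6 reads, and no other unhit tumour had a Trps1 site of its own. A further 3 unhit tumours had 10 or more reads at a Trps1 position that was credited to another library, namely 11 reads in tumour 42, 64 in tumour 78 and 852 in tumour 79. Counting any read at any Trps1 position, 17 of 21 unhit tumours had one and 4 had none. Together with the 73 hit tumours this made 90 of 94 (95.74%), the same share that the authors' deposited table lists for Trps1 in untreated tumours.

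Trps1-hit tumours carried more integrations everywhere. The number of sites of 10 or more reads outside Trps1 ran from 18 to 3007 with a median of 541 in hit tumours, and from 0 to 945 with a median of 156 in unhit tumours. The ranges overlapped between 18 and 945 sites. Library totals had medians of 56672 reads in hit and 20926 reads in unhit tumours, over a range of 2950 to 938987. When the 94 tumours were divided into 8 strata by the number of sites, 2 of 12 tumours were Trps1-hit in the lowest stratum (0 to 106 sites) and 12 of 12 in the highest (1405 to 3007 sites). Between these the shares were 9 of 12 (122 to 237 sites), 9 of 11 (238 to 332), 9 of 12 (335 to 429), 10 of 12 (431 to 620), 11 of 11 (627 to 927) and 11 of 12 (945 to 1304). Of the 21 unhit tumours, 8 had under 50 sites and 2 of these had 0 (7 and 1 without tumour 88), against 1 hit tumour under 50 (18 sites, 371 Trps1 reads). Tumour 79 had 588 positions of 10 or more reads but 3 sites outside Trps1, the others being credited to other libraries by the rule. For the other tumours of few sites, it cannot be told apart whether they lacked Trps1 insertions or were sampled too thinly to show one.

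**Figure D1:**
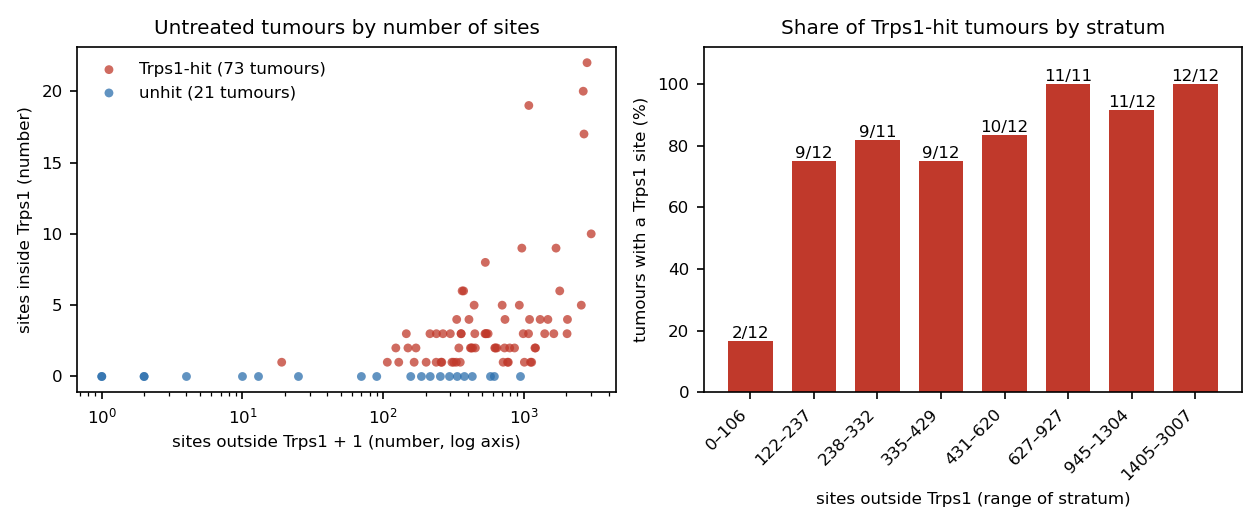
Untreated tumours by number of integration sites of 10 or more reads. Left, each point is a tumour, with the number of sites outside Trps1 plus 1 on a log axis and the number of Trps1 sites on the vertical axis. Right, bars give the percent of tumours with a Trps1 site in each of 8 strata of site number, with counts above them, from 2 of 12 in the lowest to 12 of 12 in the highest.

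Hit and unhit tumours came from the same mice. Of 23 mice, 12 had tumours of both classes (59 tumours), 10 had only hit tumours and 1 had only unhit tumours (2 tumours). Tumours of one mouse share their genotype and rearing and are not independent, and the tests within strata of site number do not allow for this. Anterior glands held 40 hit tumours of 54 (74.1%) and posterior glands 33 of 40 (82.5%). Titles had forms TgTum, with 49 of 61 tumours hit (80.3%, median 728 sites), and tgTum, with 24 of 33 hit (72.7%, median 257 sites).

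Other genes were compared within the 8 strata of site number, so that a tumour was set only against tumours of its own stratum. The lowest stratum ran from 0 to 106 sites. Its 2 hit tumours, 62 and 83, had 18 and 106 sites, and its 10 unhit tumours as few as 0. Site number was therefore held only loosely there. A gene counted as hit by the same 10-read rule. Each of 1469 genes hit in at least 5 untreated tumours was tested by the exact conditional Cochran-Mantel-Haenszel test (two-sided). That test gives a common odds ratio, the odds of a hit in Trps1-hit tumours over those in unhit tumours held equal across strata. The difference of hit shares, averaged over strata, is given in percentage points. With Benjamini-Hochberg adjustment over all 1469 genes, 0 genes (0%) passed the threshold of 0.05, and every adjusted p was 1. At an unadjusted exact p under 0.05, 2 genes (0.136%) were hit more often in Trps1-hit tumours and 24 (1.63%) less often. A logistic model with log10 of the site number plus 1 as covariate called 0 genes after adjustment, with 8 higher and 45 lower at an unadjusted p under 0.05. The margins of the strata made the directions unequal: 65 of the 1469 genes could have reached an unadjusted p under 0.05 as higher and 1238 as lower. Only 139 genes had margins that could give a p below 0.05 divided by the number of genes tested, so that most single genes could not have passed on their own.

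Ignoring the number of sites gave a different picture. The Fisher exact test without strata put 101 genes (6.88%) higher in Trps1-hit tumours at an unadjusted p under 0.05 and 0 lower, and 94.8% of all genes had a higher share in hit tumours. Within strata 58.3% of genes were higher (856 higher, 593 lower, 20 at a difference of 0), and the median difference was 1.60 percentage points in place of 8.22. After adjustment 4 genes (0.272%) passed without strata, and none of these 4 passed with them. They were Arfip1, Utrn, which encodes utrophin, a relative of dystrophin, Nhsl1, and Ctnna3, which encodes alpha-T-catenin of the cadherin complex. Utrn was hit in 56 of 73 Trps1-hit and 5 of 21 unhit tumours, 52.9 percentage points apart without strata (Fisher exact test, adjusted p = 0.0117) and 14.7 points within them (exact p = 0.244, adjusted p = 1). Ctnna3 was hit in 56 and 6 tumours, 48.1 points apart without strata (Fisher exact test, adjusted p = 0.0443) and 14.7 points within them (exact p = 0.311). Utrn, Nhsl1 and Ctnna3 lie on chromosome 10, which held a median of 25.2% of the sites of hit tumours and 25.8% of those of unhit tumours.

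**Figure D2:**
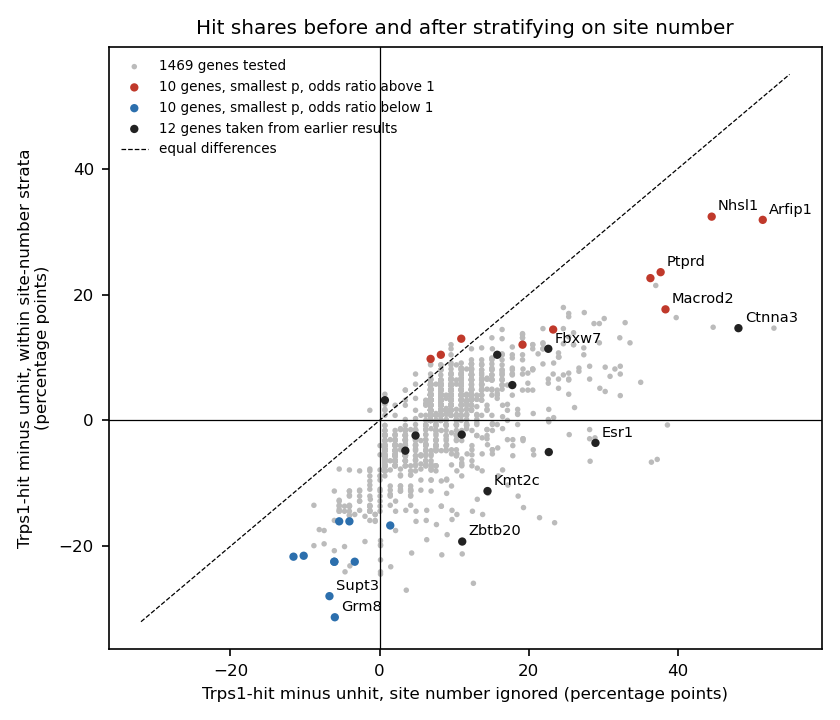
Difference in the share of tumours hit, Trps1-hit minus unhit, for 1469 genes, with site number ignored on the horizontal axis and averaged within 8 site-number strata on the vertical axis, both in percentage points. Grey points are all genes tested and coloured points the named genes. Most genes lie below the dashed line of equal differences, and the median falls from 8.22 to 1.60 points.

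The 10 genes with the smallest p among those hit more often in Trps1-hit tumours are described next, and none passed the adjusted test (adjusted p = 1 for each). Nhsl1, which encodes a regulator of the actin-nucleating WAVE complex in cell migration, was hit in 36 of 73 Trps1-hit tumours (49.3%) and in 1 of 21 unhit tumours (4.76%). Its common odds ratio was 10.7 (95% interval 1.19 to 530) and its stratified difference 32.4 percentage points (exact p = 0.0259). In the stratum of 335 to 429 sites it was hit in 5 of 9 hit and 1 of 3 unhit tumours. In the strata below and above it no unhit tumour was hit in Nhsl1, including 0 of 2 unhit tumours against 3 of 10 hit tumours at 431 to 620 sites. The region lies at 18405638 to 18533891 of chromosome 10 (mm10, identifier 215819).

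The Arfip1 row of the deposited table, at 84496064 to 85889518 of chromosome 3 (identifier 99889), was hit in 41 Trps1-hit tumours (56.2%) and 1 unhit tumour (4.76%). Its stratified difference was 31.9 percentage points and its odds ratio 8.62 (1.06 to 405, exact p = 0.0343). This row was 1393 kb long, whereas RefSeq gives Arfip1, which encodes the Golgi protein arfaptin 1, a length of 86.7 kb (GRCm38.p6). It overlapped 5 other gene rows, and one of them was Fbxw7, an F-box gene whose protein marks cyclin E, MYC and NOTCH for degradation. Of the 42 tumours hit in the Arfip1 row, 21 were hit in the Fbxw7 region within it, 20 of them Trps1-hit and 1 unhit. The values therefore belong to a stretch of the chromosome and not to Arfip1 alone. Fbxw7 by itself had a stratified difference of 11.4 percentage points (odds ratio 2.90, 0.326 to 143, exact p = 0.429).

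The remaining 8 genes had an unadjusted p above 0.05. Ptprd, a receptor tyrosine phosphatase gene with a region of 2273 kb, was hit in 31 and 1 tumours (odds ratio 7.73, 0.772 to 410, exact p = 0.0974). Adgrl3, which encodes the adhesion receptor latrophilin 3, was hit in 30 and 1 tumours (odds ratio 7.34, exact p = 0.0998). The other 6 were hit in no unhit tumour. Macrod2, which encodes an ADP-ribose hydrolase, was hit in 28 Trps1-hit tumours (stratified difference 17.7 percentage points, exact p = 0.152). Trpm3, a cation channel gene, was hit in 17 (exact p = 0.0800), the unnamed region uc033ggg.1 of chromosome 12 in 14 (exact p = 0.139) and Cobll1, a relative of the actin nucleator cordon-bleu, in 8 (exact p = 0.156). Phka2, a regulatory subunit of phosphorylase kinase, was hit in 6 and Kif13b, a kinesin, in 5, with exact p of 0.139 and 0.136. With 0 of 21 unhit tumours the share there may be up to 16.1% (95% Clopper-Pearson upper limit). These genes have no upper limit on their odds ratio, and the lower limits ran from 0.249 (Kif13b) to 0.548 (Macrod2). Single hit tumours recurred behind the genes named as higher. The lowest stratum held 2 hit tumours, 62 and 83. Tumour 83 was hit in Nhsl1, Trpm3, Ptprd, uc033ggg.1, Phka2 and Cobll1, and tumour 62 in Kif13b. Each of these genes was hit in 0 of the 10 unhit tumours of that stratum, so they are not separate observations.

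Genes hit less often in Trps1-hit than in unhit tumours of the same site-number strata were led by Supt3, which encodes a subunit of the SAGA coactivator. Supt3 was hit in 9 of 73 Trps1-hit tumours and in 4 of 21 unhit tumours, namely tumours 34, 59, 71 and 78. The difference was -6.72 percentage points without strata and -27.9 within them (odds ratio 0.0607, 0.00119 to 0.655, exact p = 0.00775, adjusted p = 1). In the 3 strata from 238 to 620 sites it was hit in 0 of 9, 0 of 9 and 0 of 10 hit tumours, and in 1 of 2, 2 of 3 and 1 of 2 unhit tumours. All 9 hit tumours with a Supt3 insertion had 627 or more sites, where 1 tumour was unhit. The Supt3 region, at 44775171 to 45119284 of chromosome 17, overlapped that of Runx2, at 44603989 to 44816797. A site in the shared stretch counts for both genes, so the values do not belong to Supt3 alone. Runx2 was hit in 7 and 2 tumours (-11.2 points, exact p = 0.185), and unhit tumour 59 was hit in both. How many sites lay in the shared stretch was not counted.

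Grm8, which encodes a metabotropic glutamate receptor, followed with 13 Trps1-hit tumours (17.8%) and 5 unhit tumours (23.8%), a stratified difference of -31.3 percentage points (odds ratio 0.106, 0.00927 to 0.727, exact p = 0.00918, adjusted p = 1). It was hit in both unhit tumours of the stratum at 431 to 620 sites, against 1 of 10 hit tumours there. Jazf1, a zinc finger protein gene, and the row with the identifier of Mir669e were each hit in 6 and 3 tumours (exact p = 0.0104 for each). That row covered 762 kb of chromosome 8, whereas RefSeq places Mir669e on chromosome 2, so the value is that of the row only. Bcr, a regulator of small GTPases, was hit in 8 and 3 tumours (exact p = 0.0110).

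Of the other 5 of the 10, Eda, which encodes ectodysplasin, a ligand in the development of skin appendages and of the mammary gland, was hit in 8 and 2 tumours (exact p = 0.0152). Rif1, a factor in replication timing and repair of DNA breaks, was hit in 3 and 3 (exact p = 0.0152), and 1110051M20Rik in 2 and 3 (exact p = 0.0200). Cmah, an enzyme of sialic acid synthesis, was hit in 4 and 2 and Rnf128, a ubiquitin ligase gene, in 3 and 2 (exact p = 0.0208 for each). The unhit tumours behind these genes were few and recurred. Tumour 42, the one unhit tumour in the stratum of 945 to 1304 sites, carried insertions in 7 of the 10, namely Mir669e, Jazf1, Eda, Rif1, 1110051M20Rik, Cmah and Rnf128. The 24 genes that were lower at an unadjusted p under 0.05 were hit in 5 to 25 tumours each, of which 2 to 5 were unhit, and 6 of them lay on chromosome 10, as did 279 of the 1469 genes tested. Hmga2, a chromatin protein gene of that chromosome that was named after its values were seen, was one of them, with 4 and 2 tumours (exact p = 0.0455).

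**Figure D3:**
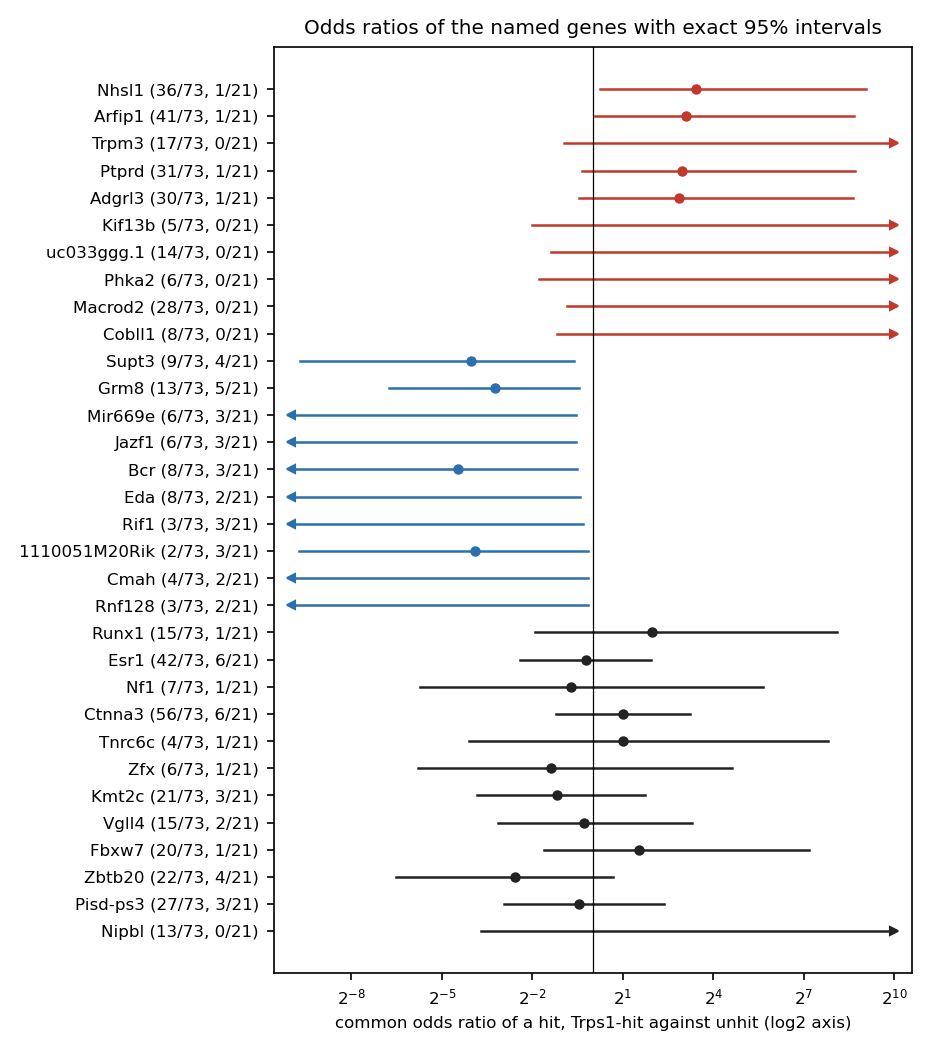
Common odds ratio of a hit in Trps1-hit against unhit untreated tumours for 32 named genes, with exact 95% intervals on a log2 axis. Numbers in parentheses are the tumours hit among 73 Trps1-hit and 21 unhit tumours, points are odds ratios that are neither 0 nor infinite, and arrows are intervals that run past the axis. Intervals of Nhsl1 and Arfip1 lie above 1 and those of the 10 genes in blue below it, before any adjustment for the number of genes.

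Recurrent cancer genes of this screen were given whatever their p, since they had been picked from earlier results of these data. Esr1, the estrogen receptor gene, was hit in 42 of 73 Trps1-hit tumours (57.5%) and 6 of 21 unhit tumours (28.6%), yet its stratified difference was -3.57 percentage points (odds ratio 0.853, 0.189 to 3.81, exact p = 1). In the strata with unhit tumours between 122 and 620 sites Esr1 was hit in 4 of 9, 2 of 9, 3 of 9 and 6 of 10 hit tumours, and in 2 of 3, 1 of 2, 1 of 3 and 1 of 2 unhit tumours. Kmt2c, a histone H3 lysine 4 methyltransferase, was hit in 21 and 3 tumours, 14.5 percentage points higher without strata and -11.2 within them (odds ratio 0.439, 0.0701 to 3.29, exact p = 0.368). Zbtb20, which encodes a BTB-domain repressor, was hit in 22 and 4 tumours, with 11.1 points without strata and -19.3 within them (odds ratio 0.169, 0.0109 to 1.60, exact p = 0.0756). For these 3 genes the sign of the difference turned between no strata and 8 strata of site number, and this depended on the setting: Esr1 stood at 11.1 points with 4 strata of site number and Kmt2c at 14.3 points with 8 strata and sites of 20 or more reads.

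Runx1, a transcription factor of luminal cells mutated in breast cancer, was hit in 15 Trps1-hit tumours and in 1 unhit tumour, tumour 91 (odds ratio 3.87, 0.268 to 272, exact p = 0.604). Nipbl, which loads cohesin onto chromatin, was hit in 13 and 0 (exact p = 1). Nf1, a brake on RAS, was hit in 7 and 1 (odds ratio 0.601, 0.0188 to 50.4, exact p = 1). Vgll4, which competes with YAP for TEAD binding, was hit in 15 and 2, Zfx in 6 and 1, Tnrc6c, of microRNA silencing, in 4 and 1, and the row with the identifier of the pseudogene Pisd-ps3 in 27 and 3, with exact p from 0.427 to 1. That last row was 43.7 kb long on an unplaced contig, against 7.016 kb in RefSeq, so its value is that of the row only. Gata3, a GATA factor of luminal cells, was hit in fewer than 5 tumours and was not tested. The intervals of all these odds ratios include 1 and reach beyond 3-fold in one direction or both, so an effect of that size is not excluded in that direction.

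The next groups followed the known biology of TRPS1. Of 25 mammary luminal transcription factors and receptors, 15 had an insertion in some untreated tumour and 9 could be tested, of which 5 had a higher and 4 a lower share in Trps1-hit tumours. Nfia and Nfib, factors of mammary differentiation, were hit in 14 and 3 and in 12 and 3 tumours (stratified differences -16.0 and -12.8 percentage points, exact p = 0.120 and 0.323). Ehf, an epithelial ETS factor, was hit in 8 and 0 tumours, Prlr, the prolactin receptor gene, in 7 and 0, and Zfpm2, a cofactor of GATA proteins, in 10 and 0. The median difference of this group was 2.55 points, beside 1.60 points over all 1469 genes.

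Of 26 corepressor genes, among them those of NuRD and CoREST, 14 were hit in some tumour and 5 were tested, with 1 higher and 4 lower and a median of -4.81 points. Tbl1xr1, of the NCoR complex, was hit in 8 and 2 tumours (-11.1 points, exact p = 0.194), Hdac2, a histone deacetylase gene, in 8 and 2, Rcor1, the CoREST scaffold gene, in 5 and 1, and Kdm1a, the demethylase of CoREST, in 4 and 1. Of 29 genes of the Hippo pathway and YAP-TEAD, 21 were hit in some tumour and 9 tested, with 2 higher and 7 lower (median -3.21 points). Tead1, a partner of YAP, was hit in 14 and 2 tumours, Lats1, a kinase that restrains YAP, in 15 and 2, and Stk3, a kinase upstream of it, in 12 and 1. None of the 23 tested members of these 3 groups had an unadjusted p under 0.05. Over all 1469 genes 0.136% were higher and 1.63% lower at that threshold, so 0 of 23 is near the overall share. Of the genes named here, Hdac2 and Lats1 lie on chromosome 10.

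Of 16 genes of actomyosin control, 8 were tested, with 3 higher and 5 lower. Ppp1r12a, a targeting subunit of myosin phosphatase, was hit in 20 Trps1-hit tumours and 0 unhit tumours (10.4 points, exact p = 0.559), and Arhgap35, which encodes a GTPase-activating protein, in 9 and 0 (8.97 points, exact p = 0.582). Chromatin regulators had 10 members tested of 25, with 5 higher and 5 lower. Crebbp, an acetyltransferase, was hit in 4 and 2 tumours (-13.6 points, exact p = 0.0972) and Ezh2, the methyltransferase of Polycomb, in 3 and 2 (-12.8 points, exact p = 0.114). Of the 3 genes tested in cohesin and its loader, Stag1, a cohesin subunit, was hit in 16 and 0 tumours (8.97 points, exact p = 0.563).

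Among genes of PI3K, AKT and mTOR signalling, Inpp4b, a phosphoinositide phosphatase gene, was hit in 21 and 1 tumours (6.56 points), Ppp2r2a, a regulatory subunit of protein phosphatase 2A, in 4 and 1 (2.55 points) and Sgk1, a kinase related to AKT, in 20 and 2 (-3.06 points), and for each the exact p was 1. RAS-MAPK brakes had 5 tested (2 higher, 3 lower) and RAS-MAPK activators 1 (Gab2, 5 and 0 tumours). Receptor tyrosine kinases had 7 tested, 2 higher and 5 lower, with Egfr hit in 8 and 0 tumours and Erbb4 in 12 and 2. TGF-beta and SMAD genes had 5 tested (2 higher, 3 lower), cell cycle and p53 genes 2 (Rb1, the retinoblastoma gene, in 10 and 0 tumours and Cdk6 in 7 and 1), and microRNA silencing genes 4, all with a positive difference of at most 3.36 points. WNT and NOTCH genes had 11 tested, 7 higher and 4 lower, with a median of 4.01 points. Their lowest member was Maml3, a NOTCH coactivator, hit in 6 and 3 tumours (-11.2 points, exact p = 0.275).

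Adhesion and polarity genes had 13 tested, 7 higher, 5 lower and 1 at a difference of 0. Ptprk, a receptor phosphatase gene of cell contacts on chromosome 10, was hit in 37 Trps1-hit tumours (50.7%) and 8 unhit tumours (38.1%) (stratified difference -25.9 points, exact p = 0.0997). Ctnna2 and Ctnnd2, catenin genes, were hit in 15 and 3 and in 18 and 3 tumours (exact p = 0.122 and 0.147). Of 23 very long neural and fragile-site genes tested, 10 were higher and 13 lower, with a median of -1.31 points. Grm8 was the one member with an unadjusted p under 0.05, beside 0.136% higher and 1.63% lower over all 1469 genes. Csmd1 was hit in 20 and 4 tumours (-21.4 points, exact p = 0.0541), whereas Pcdh15, a protocadherin gene on chromosome 10, was hit in 57 and 7 (14.8 points, exact p = 0.303). Markers of other cells of the gland, from endothelium to myoepithelium, had 0 of 19 members hit in 5 or more tumours. Across the 17 groups with a tested member, 0 members passed the adjusted test, against 0% of all genes.

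**Figure D4:**
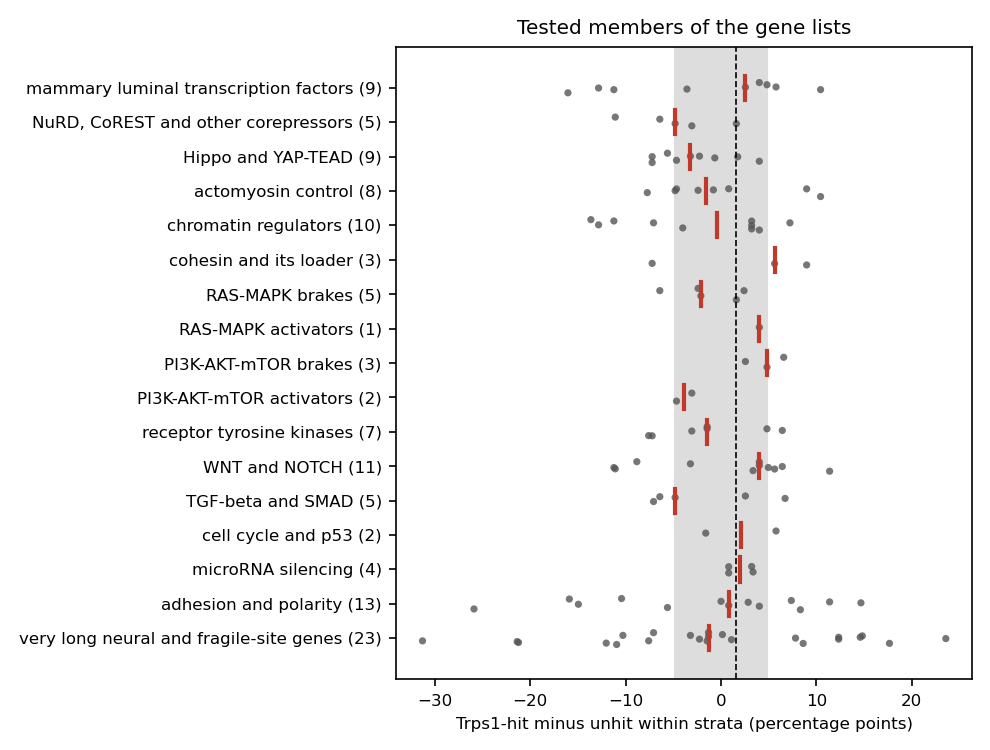
Stratified difference in hit share, Trps1-hit minus unhit, in percentage points for each tested member of 17 gene lists, with the number of tested members in parentheses. Red bars are list medians, the grey band holds the central 50% of all 1469 genes and the dashed line is their median of 1.60 points. Most list medians lie inside the band.

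Unhit tumours carried insertions in other genes of these lists. The genes named are a choice from 30 list members hit in tumour 42, 27 in tumour 59 and 22 in tumour 17. Tumours 81, 91 and 84 had 15, 17 and 6. The members hit in each of these tumours include very long neural and fragile-site genes. No share for hit tumours of similar site number is set beside them. Tumour 42, with 945 sites, had sites in Fbxw7, Lats1, Kdm6a and the corepressor genes Rcor1, Kdm1a and Tbl1xr1. Tumour 59 (616 sites) had sites in Esr1, Runx2, Nfia and Nfib, and tumour 17 (578 sites) in Kmt2c and Vgll4. Tumour 81 (429 sites) carried Kmt2c, Ezh2 and Hdac2, and tumour 91 (215 sites) carried Esr1, Runx1 and Kmt2c. Tumour 84 (156 sites) was the 1 unhit tumour with an Nf1 site. Of the 21 unhit tumours, 6 had an Esr1 site (tumours 59, 60, 69, 71, 78 and 91) and 6 a Ctnna3 site (tumours 17, 34, 42, 49, 78 and 81), with tumour 78 in both sets.

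Features of the integrations other than their genes were compared within the same strata by permuting the Trps1 labels (100000 resamples, two-sided, adjusted over the 4 measures). Chromosome 10 held 24.8% ± 4.18 of sites (SD, n = 73) in hit tumours and 20.9% ± 11.3 (n = 19) in unhit tumours, 2.76 percentage points apart within strata (permutation p = 0.219, adjusted p = 0.293). The most-read site outside Trps1 took 4.86% ± 7.67 of reads in hit and 22.7% ± 34.6 in unhit tumours, a stratified difference of -6.52 points (permutation p = 0.190, adjusted p = 0.293). Sites inside a gene region made up 47.8% ± 2.52 and 39.7% ± 16.4, 2.55 points apart (permutation p = 0.364). Tumours of anterior glands made up 54.8% of hit and 66.7% of unhit tumours (stratified difference -23.9 points, permutation p = 0.211). The first 3 measures leave out the 2 unhit tumours with 0 sites. None passed. Without tumours of under 50 sites, a setting added after the data were seen, the unhit values were 26.1% ± 2.02 for chromosome 10, 4.597% ± 4.48 for the most-read site and 47.99% ± 3.06 for gene regions (n = 13).

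In resistant tumours, which the rule did not use, 41 of 51 were Trps1-hit (80.4%, 66.9 to 90.2) and 10 were not. Site numbers differed there in the same way, with medians of 538 in hit and 144.5 in unhit tumours, and 7 of the 10 unhit tumours lay in the lowest of 4 strata. Of 762 genes tested by the exact Cochran-Mantel-Haenszel test, 0 (0%) passed after adjustment. At an unadjusted p under 0.05, 1 gene (0.131%) was higher and 9 (1.18%) lower, and a logistic model gave 1 and 17 with 0 after adjustment. The 1 higher gene was Utrn, named by this count, which was hit in 31 of 41 and 1 of 10 tumours (58.8 points, exact p = 0.00989, adjusted p = 1). Among the 9 lower genes was Foxo1, a transcription factor that AKT keeps out of the nucleus, hit in 4 and 2 tumours (exact p = 0.0385) and also chosen after its values were seen.

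Of the 32 named genes, 22 could be tested in resistant tumours, and the difference had the same sign as in untreated tumours in 12 and the opposite sign in 10. Nhsl1 was hit in 17 of 41 Trps1-hit and 1 of 10 unhit resistant tumours (20.2 points, exact p = 0.367), Supt3 in 6 and 1 (-10.2 points, exact p = 0.365) and Grm8 in 8 and 2 (-15.5 points, exact p = 0.536). The Arfip1 row was hit in 22 and 3 resistant tumours, -1.98 points against 31.9 points in untreated tumours. Kmt2c was hit in 23 and 1 (2.20 points), and Zbtb20 in 20 and 3 (-22.9 points). Nf1 was hit in 18 of 41 Trps1-hit and 0 of 10 unhit resistant tumours (22.8 points, exact p = 0.273). A count of 0 of 10 allows a share of up to 30.8% (95% Clopper-Pearson upper limit). The interaction of the Trps1 contrast with treatment was tested for the 32 genes in a logistic model over the untreated and resistant tumours together, and 0 passed after adjustment (smallest adjusted p = 0.332), with 3 at an unadjusted p under 0.05, namely uc033ggg.1, Eda and Arfip1.

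**Figure D5:**
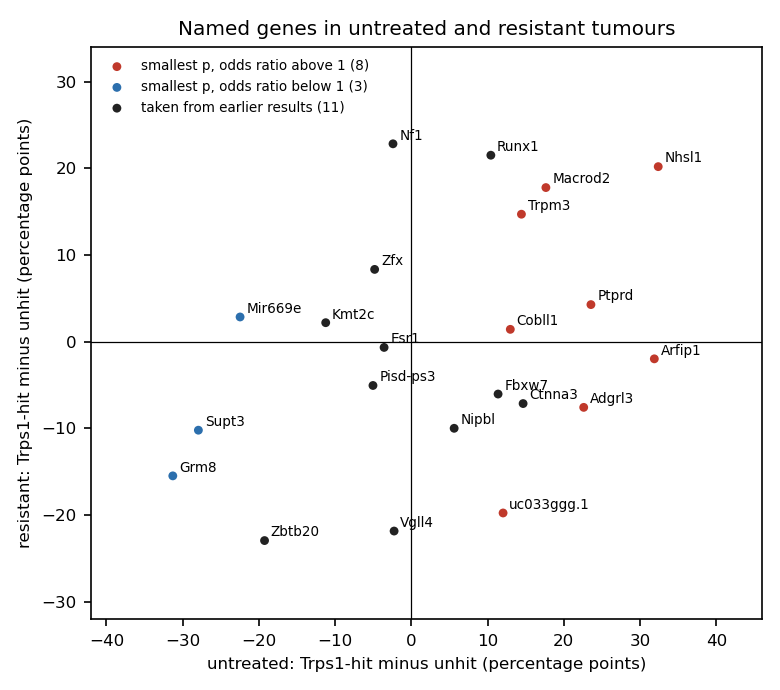
Stratified difference in hit share, Trps1-hit minus unhit, in percentage points, for the 22 named genes tested in both groups, with untreated tumours on the horizontal and resistant tumours on the vertical axis. Of the 22 genes 12 lie in quadrants of equal sign, among them Nhsl1, Supt3 and Grm8, and 10 in quadrants of opposite sign, among them Arfip1.

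Single unhit tumours decided the 2 genes that were higher at an unadjusted p under 0.05. Leaving out each of the 21 unhit tumours in turn gave 0 genes after adjustment each time. The number of higher genes was then 0 without tumour 78 or without tumour 81, 1 without tumour 17 or without tumour 34, 3 without tumour 67 and 2 otherwise, and that of lower genes ran from 20 to 32. Hit tumours were not left out in this way. With strata of mice in place of site number, 50 genes were higher and 1 lower at an unadjusted p under 0.05 and 0 passed after adjustment.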

How the data were processed

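Genomic DNA of mouse mammary tumours was sheared, ligated to a splinkerette adaptor, enriched by PCR for fragments with the transposon arm, pooled into 4 pools and sequenced with paired reads of 100 bp, per the labels' protocols. Coordinates are mm10, as the submitters' processing notes state. No source used here gives the aligner or site caller, and ATAC-seq, named in the title, is not what the protocols describe. The deposited site table holds a whole-number read count per site and library, with no scaling that the values show. The authors' deposited table of gene regions gave the region borders and the percent of tumours hit. Gene symbols came from the region identifiers through RefSeq (GRCm38.p6), which held 12384 of 13391, and exons and introns were not assigned. Where regions overlap, a site counts for each.

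Groups came from the labels and mice from the titles. Library totals of untreated tumours ran from 2950 to 938987 reads (median 48339), reads are PCR products without molecular identifiers, and intervals cover counting of tumours only. Each position and strand was kept in the library with the most reads, and sites of 10 or more reads entered. Genes hit in 5 or more tumours were tested with R 4.3.3 (mantelhaen.test, exact) over 8 strata of site number in untreated and 4 in resistant tumours. Adjustment was by Benjamini-Hochberg. Strata differences are Mantel-Haenszel differences, and list medians use them because odds ratios can be infinite. Permutations and intervals used Python 3.11.15, numpy 2.4.6 and scipy 1.17.1. The tests were checked on simulated data. Some list members are not reported here.

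Named genes were the 10 with the smallest exact p in each direction (ties by more tumours hit, then by identifier) and 12 tested genes of earlier interest (Gata3, the 13th, was hit too rarely); members of the lists may be named too. The class rule, the genes and the 18 lists were chosen with earlier results of these data known. Alternatives were other strata, read minimums, treatments of shared positions and gene filters, and a logistic model.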

Additional observations from a re-analysis of the deposited data

Results flagged for a closer look

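Within the tumours of single mice, 4 values stood apart from the rest of their group by Dixon's criterion, out of 29 groups tested, and chance gives about 1 in 20. The numbers of Trps1 sites among them are values that the class rule used, and are given as a description only. The 4 values are therefore not weighed against that chance rate. In one mouse, tumour 43 had 20 Trps1 sites, whereas its other 4 tumours had at most 1, with a median of 0 over the 5, and tumour 43 also had the most sites elsewhere (2640). In another mouse, tumour 56 had 19 Trps1 sites and 1083 sites elsewhere, and the other 3 tumours had at most 1 Trps1 site. Both mice also held unhit tumours, 3 in the first and, in the second, tumours 58 and 88, which carry the same gland in their titles. With that gland counted once the second mouse has 3 tumours, too few for the criterion. In a mouse of 4 tumours, tumour 20 had 1096 sites outside Trps1 against 2557 or more in the other 3 tumours (median 2615 over the 4). In a mouse of 6 tumours, tumour 55 had 792 sites outside Trps1 against 451 or fewer in the other 5 (median 418.5 over the 6).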

How the results depend on the processing

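The count of 0 genes after adjustment held under every alternative with strata or the logistic model and in the resistant tumours, and the test without strata gave 4. At an unadjusted p under 0.05 (2 higher, 24 lower with 8 strata) the counts were 101 higher and 0 lower without strata, 12 lower with 4 strata, 8 higher and 45 lower in the logistic model, 50 higher and 1 lower with strata of mice, and 6 higher with 4 site-number classes within title form. They were 5 higher with sites of 5 or more reads, 1 higher with 20 or more, 6 lower with 100 or more, and 11 lower with shared positions dropped. They were 11 lower with genes hit in 10 or more tumours, 49 lower with 2 or more, and 1 higher both without chromosome 10 and without tumours of under 50 sites. Without the R2 library, with the strata formed anew, they were 2 higher and 34 lower. Leaving out each unhit tumour in turn, with the strata kept, gave 0 to 3 higher and 20 to 32 lower genes. With the 100 most-read sites the counts were 0 and 0, because the strata then divide tumours by their Trps1 sites, and without strata, added later, 3 lower (3 higher). Of the alternatives, those without tumours of under 50 sites, those leaving out single tumours and the 100-site sets without strata were chosen after seeing the data.

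Among the named genes no adjusted call arose except without strata, where Nhsl1, Arfip1 and Ctnna3 passed. Differences turned sign, in percentage points, as follows, and the cause was not tested. Without strata they were 1.44 (Eda), 28.96 (Esr1), 14.5 (Kmt2c), 4.83 (Nf1), 22.7 (Pisd-ps3), 11.02 (Vgll4), 11.1 (Zbtb20) and 3.46 (Zfx). With 4 strata they were 11.1 (Esr1), 6.94 (Nf1) and 2.35 (Pisd-ps3), and in the logistic model 0.0207 (Nf1) and -2.88 (Tnrc6c). With strata of mice they were 24.9 (Esr1), 6.34 (Nf1), 16.8 (Pisd-ps3), 7.70 (Vgll4) and 8.52 (Zbtb20), and within title form 9.21 (Esr1), 1.98 (Nf1), 3.92 (Pisd-ps3) and -0.421 (Tnrc6c). With 5 or more reads they were -7.88 (Macrod2), 5.91 (Nf1), -3.58 (Tnrc6c) and 2.95 (Zfx), with 20 or more 14.3 (Kmt2c), 3.38 (Nf1) and 1.91 (Pisd-ps3), and with 100 or more -0.921 (Adgrl3), 19.2 (Kmt2c, exact p = 0.0326), 10.7 (Vgll4) and 2.53 (Zfx). With the 100 most-read sites they were 14.3 for each of Esr1, Kmt2c and Zbtb20. The strata then divide tumours by their Trps1 sites, so these values cannot decide a sign. Without strata the differences over the 100 most-read sites were 6.99 (Kmt2c), -0.322 (Ptprd) and 2.67 (Zbtb20). With shared positions kept they were 2.40 (Nf1), 7.28 (Pisd-ps3), -2.64 (Runx1) and 1.99 (Vgll4), and with them dropped 19.9 (Esr1), -4.80 (Runx1), -0.258 (Trpm3) and -0.464 (uc033ggg.1). Nf1 stood at 3.06 without the library whose title ends in R2 and at 0.930 without tumours of under 50 sites, where Tnrc6c stood at -2.70.

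The measures of chromosome 10, most-read site and gene regions passed the adjusted test only where site number was not held. The share of anterior glands passed in no setting. Without strata the differences were 3.91 (chromosome 10), -17.8 (most-read site) and 8.12 points (gene regions), and within mice 4.93, -21.2 and 8.28. They turned sign for chromosome 10 (-0.221) and gene regions (-0.846) without tumours of under 50 sites, and for the most-read site with shared positions dropped (0.297). Comparisons within mice are those given with strata of mice and with labels permuted within mice. With 21 unhit tumours, 8 of them under 50 sites, only strong differences could be seen, and for most genes none in the higher direction. Within the 8 strata, 65 of the 1469 genes could have reached an unadjusted p under 0.05 as higher, against 1238 as lower.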
